A study of Mus musculus with 6 samples.

Results

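In the bone marrow of naive mice, 3054 chromatin regions were called accessible in both libraries of pc-BMACs and in no library of plasma cells or immature B cells. They made up 4.42% of the 69171 regions called in at least 1 of 6 ATAC-seq libraries. They were short and lay mostly inside genes: 73.2% overlapped a protein-coding gene, against 64.0% of all regions. Regions called in all 6 libraries did so more often, at 76.9%. Within 1 kb of a gene end lay 7.04%, against 19.6% of all regions. Regions called in plasma cells alone or in immature B cells alone were short too. Of these, 6.82% and 5.69% lay within 1 kb of a gene end. The genes with most of them were Hivep3, Cacna1e, Foxp1 and Rab11fip4, and the plasma cell genes Fndc3b and Creb3l2 were among the 15 highest. Of 15 plasma cell genes listed, only 7 had any, and Sdc1 and Xbp1 had 0.

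The regions were chosen by their calls. Peaks of the 6 lists with an overlap of 1 bp or more were joined, and a merged region was kept when a peak of each pc-BMAC list overlapped it and no peak of the other 4 lists did. These calls are therefore the basis of the choice and no result, and no test was made on them. By the mirrored rules, 1041 regions (1.5%) were called in plasma cells alone and 9904 (14.3%) in immature B cells alone. A further 2529 were called in all 4 libraries of pc-BMACs and plasma cells and in neither immature B cell library, and 20468 were called in all 6 libraries. The files hold peak positions without read counts, so depth is unknown, and the lack of a call does not show a region to be closed. In sorted bulk cells, a region open in few of the cells and a region weakly open in all of them cannot be told apart.

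All 3 populations came from Adig mice, which carry a GFP reporter of Aire, on the Balb/c background, and were isolated by flow sorting. The pc-BMACs were AireGFP+B220-CD138+TACI+. Plasma cells were AireGFP-B220-CD138+TACI+, so they share the B220, CD138 and TACI gates of the pc-BMACs and differ in the reporter. Immature B cells were AireGFP-B220+CD138-TACI-IgM+. Each population had 2 libraries, made from 2000 to 15000 sorted cells. The labels do not say whether different animals gave the libraries of each population.

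ATAC-seq uses a transposase that inserts sequencing adapters where DNA is not covered by nucleosomes or other proteins. Accessible regions near gene starts are mostly promoters, which are often open in many cell types, while those inside introns or between genes include enhancers, which tend to be open in fewer cell types. Plasma cells are antibody-secreting cells governed by the transcription factors Blimp-1 (Prdm1), Irf4 and Xbp1. Aire lets thymic epithelial cells express proteins of other tissues and is also expressed in rare cells outside the thymus.

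The 6 lists differed in length. The pc-BMAC lists held 38607 and 34070 peaks, those of plasma cells 37821 and 36723, and those of immature B cells 51643 and 46534. Median peak widths were 523 and 489 bp in pc-BMACs, 404 and 414 bp in plasma cells, and 453 and 386.5 bp in immature B cells. The number of pc-BMAC-only regions rests on both pc-BMAC libraries: without pc-BMACs 2 the same rule gave 6201 regions, and without pc-BMACs 1 it gave 4176.

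A small number of pc-BMAC-only regions lay at gene starts, and these can be shown as sequence. Of the 3054 regions, 75 (2.46%) overlapped the promoter window of a protein-coding gene, taken as the 250 bases before and 50 after its start. The share was 2.69% for plasma cell-only and 1.45% for immature B cell-only regions. It was 39.0% for regions called in all 6 libraries and 13.6% for all regions. The 75 regions touched 79 windows of 76 genes, and 38 of the 76 genes also had a region called in all 6 libraries. Some windows lie at a start inside the gene interval, as at Tmem125, Zfp791 and R3hdm2. For 17 of the 76 genes no peak of plasma cells or immature B cells lay in the gene, within 1 kb of it, or in a region assigned to it. The mirrored counts were not made for the other populations. The 8 windows below are those covered over at least 150 bp by the widest regions at these 17 genes. They are shown because no region at the gene was called in the other populations. Capitals mark the letters of a motif that was searched.
Negr1: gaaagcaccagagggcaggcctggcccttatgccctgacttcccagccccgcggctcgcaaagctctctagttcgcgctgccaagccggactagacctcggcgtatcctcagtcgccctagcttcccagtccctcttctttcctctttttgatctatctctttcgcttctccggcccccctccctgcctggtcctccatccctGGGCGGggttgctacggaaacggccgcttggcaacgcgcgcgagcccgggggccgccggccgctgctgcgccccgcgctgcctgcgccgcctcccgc
Gabra4: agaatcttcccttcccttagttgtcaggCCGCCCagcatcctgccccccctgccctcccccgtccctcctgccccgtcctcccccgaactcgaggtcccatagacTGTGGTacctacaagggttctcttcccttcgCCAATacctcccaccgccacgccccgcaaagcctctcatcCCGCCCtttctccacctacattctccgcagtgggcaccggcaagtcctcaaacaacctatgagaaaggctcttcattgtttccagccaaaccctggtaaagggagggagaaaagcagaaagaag
Tmem125: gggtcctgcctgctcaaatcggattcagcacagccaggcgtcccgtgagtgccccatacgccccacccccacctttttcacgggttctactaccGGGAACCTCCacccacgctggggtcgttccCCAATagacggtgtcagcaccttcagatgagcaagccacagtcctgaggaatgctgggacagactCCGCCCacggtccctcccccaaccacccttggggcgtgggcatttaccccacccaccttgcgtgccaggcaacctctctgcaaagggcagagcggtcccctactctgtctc
Slamf8: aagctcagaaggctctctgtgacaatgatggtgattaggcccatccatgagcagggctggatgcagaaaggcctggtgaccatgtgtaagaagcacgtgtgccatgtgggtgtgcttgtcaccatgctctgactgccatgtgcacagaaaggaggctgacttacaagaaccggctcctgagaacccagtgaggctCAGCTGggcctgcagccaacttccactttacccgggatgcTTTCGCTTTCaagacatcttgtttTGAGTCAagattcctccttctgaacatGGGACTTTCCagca
Neurog3: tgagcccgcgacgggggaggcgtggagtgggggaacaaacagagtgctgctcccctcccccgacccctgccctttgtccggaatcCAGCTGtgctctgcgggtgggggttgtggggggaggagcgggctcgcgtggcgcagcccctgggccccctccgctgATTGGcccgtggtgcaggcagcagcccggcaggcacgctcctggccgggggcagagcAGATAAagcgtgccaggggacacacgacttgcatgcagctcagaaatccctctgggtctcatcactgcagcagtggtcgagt
Zfp791: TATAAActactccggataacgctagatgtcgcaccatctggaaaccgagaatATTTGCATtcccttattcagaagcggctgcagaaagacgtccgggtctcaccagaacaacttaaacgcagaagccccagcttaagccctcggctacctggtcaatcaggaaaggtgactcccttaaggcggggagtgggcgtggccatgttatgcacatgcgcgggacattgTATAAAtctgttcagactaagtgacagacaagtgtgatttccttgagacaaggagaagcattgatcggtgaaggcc
Mcts2: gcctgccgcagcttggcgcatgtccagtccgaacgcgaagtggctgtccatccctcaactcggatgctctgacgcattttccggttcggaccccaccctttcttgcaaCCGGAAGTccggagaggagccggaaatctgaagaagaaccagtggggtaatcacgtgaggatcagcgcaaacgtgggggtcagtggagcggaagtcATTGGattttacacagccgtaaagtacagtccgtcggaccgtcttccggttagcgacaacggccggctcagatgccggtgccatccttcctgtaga
Gpr75: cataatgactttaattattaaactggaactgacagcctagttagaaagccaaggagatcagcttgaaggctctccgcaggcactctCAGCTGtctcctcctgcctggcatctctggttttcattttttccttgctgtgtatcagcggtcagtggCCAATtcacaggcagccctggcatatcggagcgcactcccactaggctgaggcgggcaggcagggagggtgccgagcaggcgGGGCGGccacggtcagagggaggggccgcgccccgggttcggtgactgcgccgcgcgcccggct

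The windows are from RefSeq on the GRCm38.p6 build, 5′ to 3′ on the strand of the gene. Negr1, a cell adhesion molecule of neurons, has its window at chr3:156561544-156561843 on the plus strand. Gabra4, a subunit of the GABA-A receptor, lies on the minus strand with its window at chr5:71658259-71658558, and Tmem125 is also on the minus strand, at chr4:118543677-118543976. The window of Slamf8, a receptor of the SLAM family, is at chr1:172590519-172590818 on the minus strand. Neurog3, a transcription factor of endocrine progenitors in the pancreas, has its window at chr10:62132840-62133139 on the plus strand. The zinc finger gene Zfp791 has its window at chr8:85119642-85119941 on the minus strand, Mcts2 at chr2:152686898-152687197 on the plus strand and the receptor gene Gpr75 at chr11:30885108-30885407 on the plus strand. Mcts2 is a retrocopy of Mcts1, so reads of one could be placed on the other.

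These 8 windows were not alike in composition. The Neurog3 window had a GC content of 68.3% with 19 CpG, and that of Negr1 68.0% with 29 CpG, while the Zfp791 window had 49.7% and 14 CpG, and that of Slamf8 had 52.3% and 4 CpG. The Slamf8 window held the NF-kB match GGGACTTTCC, the AP-1 match TGAGTCA, the IRF match TTTCGCTTTC and the E-box CAGCTG. The Tmem125 window held an NF-kB match, a CCAAT box and an Sp1 match. The Zfp791 window held the octamer ATTTGCAT and a pair of TATAAA matches. Over all 79 windows the median GC content was 60.3% with 17 CpG, against 56.3% with 6 CpG in windows of plasma cell-only regions, 58.7% with 11.5 CpG in those of immature B cell-only regions and 62.0% with 22 CpG in those of regions called in all 6 libraries.

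Searched on both strands were 17 motifs: NF-kB (GGGA and TCC with any 3 bases between), IRF (GAAA and GAAA with any 2 bases between), the ETS-IRF composite (GGAA and GAAA with any 2 bases between), AP-1 TGANTCA, CRE TGACGTCA, UPRE TGACGTGG, RUNX TGTGGT, an E-box CAGCTG, another E-box CAGGTG, Sp1 GGGCGG, the CCAAT box, the TATA box TATAAA, ETS CCGGAAGT, PU.1 GAGGAAGT, EBF (TCCC and GGGA with any 2 bases between), the octamer ATGCAAAT and, for GATA factors, AGATAA. CRE and UPRE share the letters TGACGT, and the IRF and composite motifs end in the same letters. A match is a description of letters and not a bound site, and its absence from a window says nothing of the factor. Sp1 letters were in 49 of the 79 windows at pc-BMAC-only regions (62.0%, Wilson 95% interval 51.0 to 71.9%), against 37.9% of windows at plasma cell-only regions, 44.0% at immature B cell-only regions, 58.3% at regions shared by pc-BMACs and plasma cells, 69.3% at regions called in all 6 libraries and 46.2% of all protein-coding windows. The CCAAT box was in 20 windows (25.3%, 17.03 to 35.9%), against 24.1%, 30.0%, 26.0%, 39.2% and 38.2% of the same sets in that order, so its share was close to those of the other population-restricted sets. NF-kB letters were in 6 windows (7.59%, 3.53 to 15.6%), against 3.45%, 4.00%, 5.21%, 5.24% and 4.83%. RUNX letters were in 7 windows (8.86%, 4.36 to 17.2%), against 51.7%, 18.7%, 14.6%, 11.7% and 14.97%. ETS letters were in 1 window (1.27%), against 0%, 0.667%, 3.13%, 9.85% and 5.15%, low in each population-restricted set. The plasma cell-only set had 29 windows, so its shares are imprecise. PU.1, EBF and UPRE letters were in 0 of the 79 windows, against 3.13%, 0.959% and 0.705% of all windows. The shares for the other 9 motifs lay within 6 percentage points of those over all windows.

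Further genes stood among the 20 with the widest pc-BMAC-only regions at their starts. Kdm5b, a histone H3K4 demethylase, had 4 and 4 regions called in pc-BMACs, against 1 and 1 in the plasma cell libraries and 1 and 0 in the immature B cell libraries. Its pc-BMAC-only region at the start, chr1:134560057-134561631, was 1573 and 1239 bp wide in pc-BMACs 1 and 2. Shorter pc-BMAC-only regions lay inside the gene, at chr1:134621165-134621499 and chr1:134621848-134622047. Pitx3, a homeobox transcription factor of lens and dopamine neurons, had 1 region assigned to it, at chr19:46147639-46148821. This region was called in both pc-BMAC libraries, with widths of 1183 and 1064 bp. A peak of plasma cells or immature B cells also lay in Pitx3 or within 1 kb of it, in a region assigned to another gene. The region at the Gabra4 start, chr5:71657766-71658513, also overlapped the window of the neighbouring GABA-A receptor gene Gabrb1, which lies on the opposite strand. The others were at Pakap, A530032D15Rik, Slc30a3, Neurl1a, Kdf1, Dgcr6, Phyhd1, Evc, R3hdm2, Arhgef16, Pkig, Sct and Acot11, beside Negr1, Tmem125 and Slamf8.

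The peaks behind pc-BMAC-only regions were short. In pc-BMACs 1 their median width was 339 bp (interquartile range 245 to 478) and in pc-BMACs 2 it was 269 bp (197 to 370). In the same libraries, the peaks of all other regions had medians of 573 and 558 bp, and those of regions called in all 6 libraries had 893 and 745 bp. Short peaks were no feature of pc-BMAC-only regions alone: plasma cell-only regions had medians of 270 and 235 bp in the plasma cell libraries and immature B cell-only regions 308 and 235 bp in theirs. At the shortest width in the files, 150 bp, lay 218 (7.14%) of the 3054 regions in pc-BMACs 1 and 468 (15.3%) in pc-BMACs 2, and 95 in both.

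**Figure D1:**
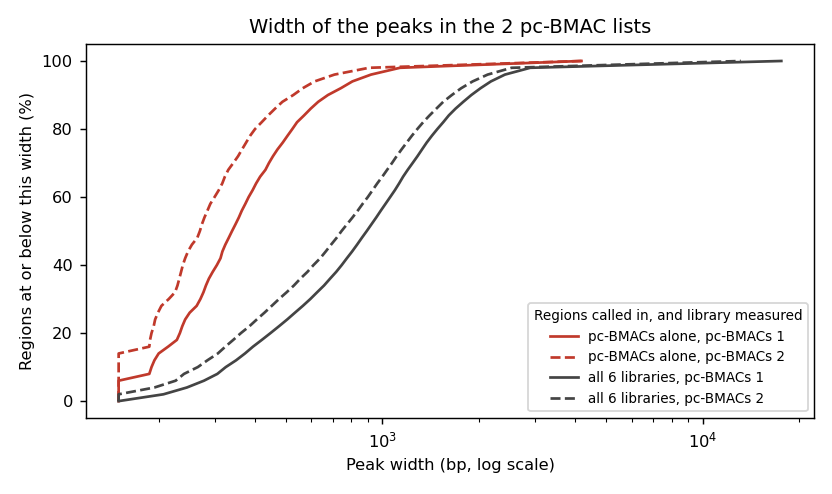
Share of regions (y axis, %) with a peak at or below a given width (x axis, bp, log scale) in pc-BMACs 1 (solid lines) and pc-BMACs 2 (dashed lines), for pc-BMAC-only regions (red) and regions called in all 6 libraries (grey). The red curves lie left of the grey ones, with medians of 339 and 269 bp against 893 and 745 bp.

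Within the chosen regions the peaks of the pc-BMAC libraries lay close together. The rule kept only regions where both had a peak, so this closeness follows in part from the choice. The same measures were not made for other sets. In 3017 of the 3054 regions each library had a single peak, the peak centres were a median of 31 bp apart, and the 2 peaks shared a median of 71.1% of the region (57.1 to 82.3). In 12 regions they shared under 50 bp. The peak was wider in pc-BMACs 1 in 2254 regions, wider in pc-BMACs 2 in 693 and equal in 107.

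Regions just outside the rule show where it divides. In pc-BMACs 1 alone 3116 regions were called, with a median width of 225 bp, and in pc-BMACs 2 alone 917, with a median of 194 bp. Both pc-BMAC libraries and a single other library called 1610 regions, of which 928 had plasma cells 1 as the other library, 254 plasma cells 2, 345 immature B cells 1 and 83 immature B cells 2. Of the regions just inside, 24 (0.786%) lay within 100 bp of a region with a peak of another population, and the smallest gap was 14 bp. The median gap was 4.65 kb, and 528 regions (17.3%) had a gap under 1 kb.

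The 10 widest pc-BMAC-only regions were 1451 to 4185 bp wide in the pc-BMAC libraries. The widest, at chr5:123135462-123139652 within Rhof, which encodes a small GTPase, was 4182 bp wide in pc-BMACs 1 and 4185 bp in pc-BMACs 2. The second, at chr17:29495656-29498821, overlapped an end of Pim1, a survival kinase, with widths of 3166 and 3051 bp. Its gap to a region of another population was 0.048 kb, so it borders chromatin called elsewhere. Others were at Arid3a, a B-lineage transcription factor (3186 and 1726 bp), at Nfatc1, a calcium-dependent transcription factor (2121 and 1463 bp), and at Zfp36l1, which promotes mRNA decay (1715 and 1767 bp). At Itpr1, the IP3 receptor that releases calcium from the endoplasmic reticulum, the region lay 1040 bp outside the gene and was 1971 and 1862 bp wide. Wdr95, Cdh2, Fam107b and Rab37 held the remaining 4. Gaps to a region of another population were 0.198 kb at Rab37, 0.338 kb at Zfp36l1 and 0.568 kb at Fam107b. They were 0.726 kb at Arid3a, 0.766 kb at Nfatc1, 1.235 kb at Rhof and 1.707 kb at Itpr1. Wdr95 and Cdh2 lay farther away, at 33.7 and 196 kb.

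The positions of the regions were not used to choose them. Of the 3054 pc-BMAC-only regions 2236 (73.2%, 95% interval 71.6 to 74.8%) overlapped a protein-coding gene. The share was 63.8% (60.8 to 66.7%) for plasma cell-only regions and 52.0% (51.0 to 53.0%) for immature B cell-only regions. It was 69.5% for those shared by pc-BMACs and plasma cells, 76.9% for those called in all 6 libraries and 64.0% for all regions. Within 1 kb of a gene end lay 215 (7.04%, 6.16 to 8.01%). This share was 6.82% for plasma cell-only and 5.69% for immature B cell-only regions. It was 47.0% for regions called in all 6 libraries and 19.6% for all regions. The share inside genes was above those of the other populations' own regions and below that of regions called in all 6 libraries. The share near gene ends was close to those of the other populations' own regions. The intervals are exact binomial and cover counting error only, since neighbouring regions are not independent. Of the regions called in a single pc-BMAC library, 69.8% and 69.2% lay inside genes and 7.28% and 9.38% near a gene end for pc-BMACs 1 and 2.

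**Figure D2:**
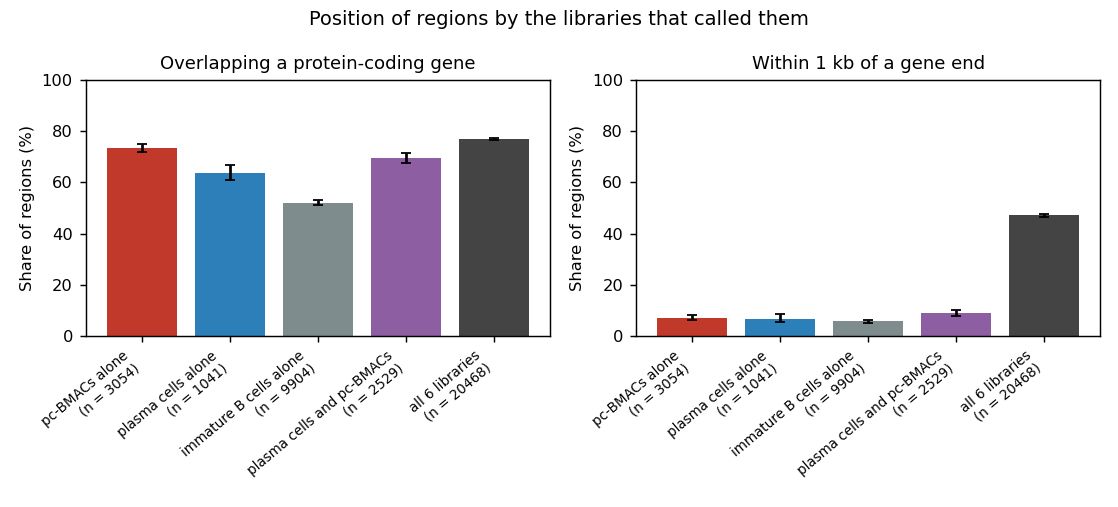
Share of regions (y axis, %) that overlap a protein-coding gene (left) and that lie within 1 kb of a gene end (right), by the libraries that called them (x axis, with the number of regions). Error bars are exact 95% binomial intervals, and the pc-BMAC-only bar stands at 73.2% on the left and 7.04% on the right.

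Inside genes the regions were spread along the gene body. Of 1781 pc-BMAC-only regions in a gene of known strand, 26.4% lay in the first 25% of its length and 20.5% in the last 25%. Plasma cell-only regions gave 27.4% and 25.4%, immature B cell-only regions 25.8% and 24.9%, and regions called in all 6 libraries 66.8% and 11.1%. The host genes of pc-BMAC-only regions had a median length of 89.3 kb, against 81.1 kb for plasma cell-only, 92.1 kb for immature B cell-only and 36.9 kb for regions called in all 6 libraries. The annotation used has no exons, so intron and exon were not separated. The 818 regions outside genes lay a median of 16.7 kb from the nearest gene, against 22.2 kb for plasma cell-only and 23.8 kb for immature B cell-only regions.

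The chromosomes carried pc-BMAC-only regions roughly as they carried all regions. Chromosome 11 held 255 (8.35%), against 7.36% of all regions, chromosome 5 held 226 (7.40%), against 6.14%, and chromosome X held 58 (1.90%), against 2.13%.

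Many pc-BMAC-only regions had another close by. Within 50 kb of another lay 1434 (47.0%, 45.2 to 48.7%), against 21.8% of plasma cell-only and 63.0% of immature B cell-only regions, sets of 1041 and 9904 regions; this share grows with the size of the set. Joined across gaps of up to 50 kb they formed 566 runs, 387 of 2 regions and 34 of 5 or more, and 1620 regions stood alone. The run with most regions lay in Hivep3, at chr4:119739599-119870439, where 10 of the 14 regions in 131 kb were pc-BMAC-only, 3 were called in all 6 libraries and 0 were without a pc-BMAC peak. Runs of 8 lay at Btaf1 and Cpeb3, in 115 kb with 23 regions, and at Kremen1 and Znrf3, in 149 kb with 24 regions. Runs of 7 lay at Tigd4 and Tmem154, in 98.4 kb, at Rbm47, in 98.9 kb, and across Cdc42bpb, Exoc3l4, Lbhd2 and Tnfaip2, in 108 kb.

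By assignment to the nearest protein-coding gene within 100 kb, 2962 of 65361 assigned regions were pc-BMAC-only (4.53%), and they fell to 2048 genes. Most genes had few: 1488 had 1, 371 had 2 and 40 had 5 or more. Without pc-BMACs 2 the number of genes was 3451. Of the 2048 genes 1752 (85.5%) also had a region called in all 6 libraries, against 74.9% of the 15271 genes with any region. Most of these genes therefore also had chromatin that every library called.

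The 15 genes highest in pc-BMAC-only regions were chosen on these calls, and their counts are a description. The last 7 of them had 6 regions each, as had 2 further genes, and such ties were settled by the share of a gene's regions that were pc-BMAC-only. In 13 of them each pc-BMAC library had more called regions than any other library. The exceptions were Foxp1 and Msi2, where immature B cells had as many regions as a pc-BMAC library or more.

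By role, transcription factors are given first. Hivep3, a zinc finger protein that binds kappaB-like sequences, had 12 pc-BMAC-only regions among 51, all inside the 404 kb gene. Its regions called per library numbered 40 and 34 in pc-BMACs, 21 and 17 in the plasma cell libraries and 28 and 20 in the immature B cell libraries. Foxp1, a forkhead factor needed for B cell development, had 9 of 99, with 67 and 50 regions in pc-BMACs, 46 and 42 in the plasma cell libraries and 67 and 63 in the immature B cell libraries. Pc-BMACs stood above plasma cells at both genes but not above immature B cells at Foxp1. Creb3l2, a transcription factor anchored in the endoplasmic reticulum, had 6 of 16, with 14 and 12 regions in pc-BMACs, 5 and 4 in the plasma cell libraries and 4 and 4 in the immature B cell libraries.

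Signalling and trafficking genes came next. Cacna1e, the pore subunit of the R-type voltage-gated calcium channel, had 9 of 46, with 34 and 30 regions in pc-BMACs, 18 and 12 in the plasma cell libraries and 22 and 17 in the immature B cell libraries. Rab11fip4, an effector of the recycling GTPase Rab11, had 8 of 26, with 22 and 19 regions in pc-BMACs, 9 and 9 in the plasma cell libraries and 12 and 13 in the immature B cell libraries. The kinase gene Sik3 had 7 of 30, with 23 and 16 regions in pc-BMACs, 9 and 10 in the plasma cell libraries and 14 and 11 in the immature B cell libraries. Summed over both libraries, immature B cells had more regions at each of these 3 genes than plasma cells did. Rap1gap2, which switches off the GTPase Rap1, had 6 of 24, with 17 and 14 regions in pc-BMACs, 11 and 9 in the plasma cell libraries and 7 and 6 in the immature B cell libraries. Znrf3, a ubiquitin ligase that removes Wnt receptors, had 6 of 24, with 18 and 16 regions in pc-BMACs, 11 and 11 in the plasma cell libraries and 6 and 5 in the immature B cell libraries.

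RNA-binding proteins were also among them. Rbm47, a cofactor of RNA editing, had 7 of 27, with 24 and 20 regions in pc-BMACs, 15 and 14 in the plasma cell libraries and 9 and 11 in the immature B cell libraries. Cpeb3, which binds polyadenylation elements of mRNA, had 6 of 28, with 25 and 21 regions in pc-BMACs, 12 and 14 in the plasma cell libraries and 9 and 10 in the immature B cell libraries. Msi2, a translational regulator of blood stem cells, had 7 of 47, with 35 and 32 regions in pc-BMACs, 26 and 25 in the plasma cell libraries and 32 and 24 in the immature B cell libraries. Srbd1 had 6 of 16 and was the only one of the 15 with more regions in pc-BMACs 2 than in pc-BMACs 1, at 11 and 14, against 4 and 4 in the plasma cell libraries and 4 and 6 in the immature B cell libraries.

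The remaining genes of the 15 followed a graded order. Fndc3b, a fibronectin type III domain protein, had 7 of 27, with 25 and 18 regions in pc-BMACs, 13 and 12 in the plasma cell libraries and 5 and 6 in the immature B cell libraries. Chst1, a carbohydrate sulfotransferase, had 6 of 18 and 0 of them inside the gene, which is 15.6 kb long: they lay 14828 to 69728 bp away. Its called regions numbered 17 and 14 in pc-BMACs, 6 and 6 in the plasma cell libraries and 1 and 2 in the immature B cell libraries. Tmem154 had 6 of 23, with 22 and 19 regions in pc-BMACs, 13 and 11 in the plasma cell libraries and 8 and 7 in the immature B cell libraries. At these 3 genes pc-BMACs had most regions and immature B cells fewest.

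**Figure D3:**
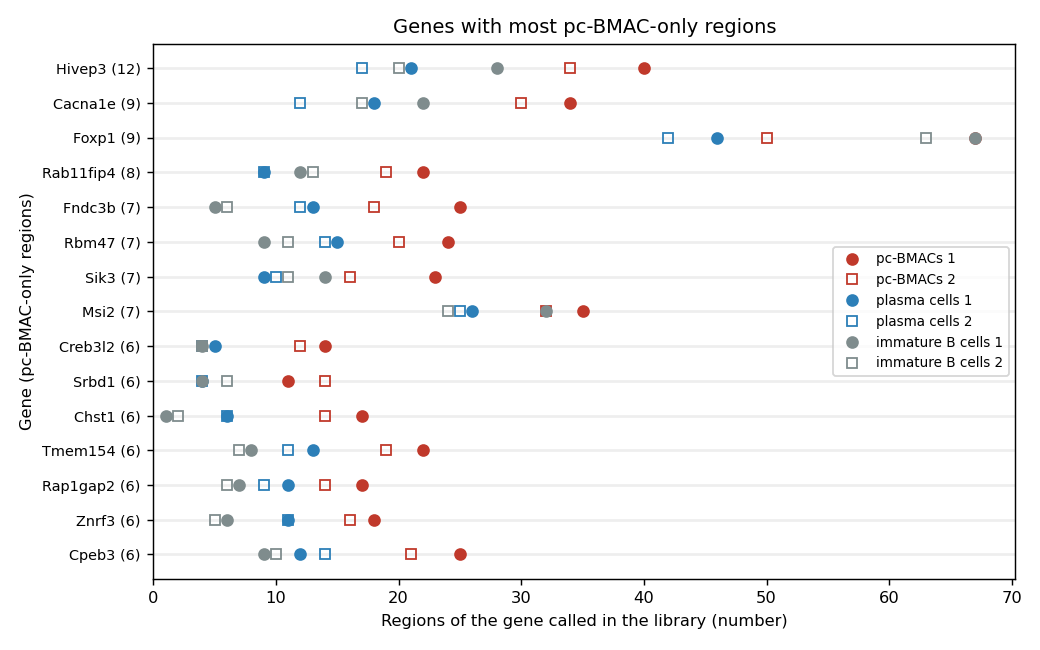
Number of regions called in each library (x axis) for the 15 genes highest in pc-BMAC-only regions (y axis, their number in parentheses), for pc-BMACs (red), plasma cells (blue) and immature B cells (grey), with library 1 filled and library 2 open. Red symbols lie farthest right for 13 genes, and for Foxp1 and Msi2 a grey symbol reaches them.

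**Figure D4:**
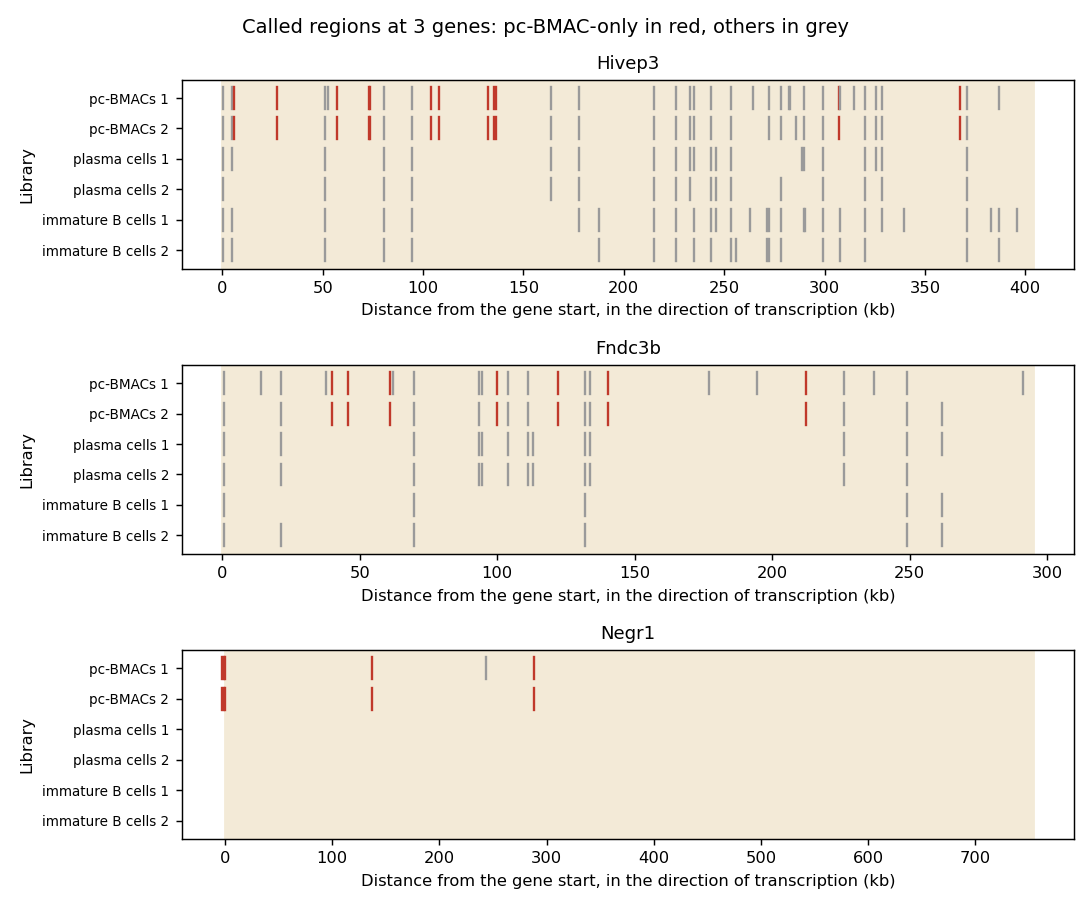
Called regions in each library (rows) at Hivep3, Fndc3b and Negr1, drawn at their centre against the distance from the gene start in the direction of transcription (x axis, kb), with pc-BMAC-only regions in red, other regions in grey and the gene shaded. Hivep3 has 12 red marks in each pc-BMAC row, Fndc3b 7 and Negr1 5, and at Negr1 the plasma cell and immature B cell rows are empty.

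Of 15 gene lists, that of plasma cell genes had the highest share of pc-BMAC-only regions. There 25 of 205 regions were pc-BMAC-only (12.2%, beside 4.53% of all assigned regions), at 7 of 15 genes, and Fndc3b and Creb3l2 supplied 13 of the 25. The called regions of the list numbered 155 and 133 in pc-BMACs, 116 and 109 in the plasma cell libraries and 92 and 81 in the immature B cell libraries. The transcription factor gene Zbtb20, which supports plasma cell survival, had 4 of 37. Ell2, an elongation factor that directs immunoglobulin mRNA processing, had 3 of 19. Cd28, Jchain, Mzb1, Sdc1, Slamf7, Tnfrsf13b, Tnfrsf17 and Xbp1, also in the list, had 0, so the share was not raised across the list. The lists differ in gene length and number of regions, and no test was made on them. They were also chosen with earlier results of these data known, so their order is a description only.

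The B cell list was among those with the lowest shares. Only 2 of its 202 regions (0.990%) were pc-BMAC-only, at Bcl11a and Blk, and its called regions numbered 93 and 63 in pc-BMACs, 100 and 97 in the plasma cell libraries and 160 and 135 in the immature B cell libraries. Among lists of other cell types that a sort could hold, monocyte, macrophage and neutrophil genes had 0 of 55, with 22 and 21 called regions in pc-BMACs, 29 and 32 in the plasma cell libraries and 42 and 40 in the immature B cell libraries. T and NK cell genes had 0 of 51, with 24 and 18 in pc-BMACs, 35 and 31 in the plasma cell libraries and 27 and 20 in the immature B cell libraries. Erythroid and megakaryocyte genes had 1 of 29 (3.45%), at Tfrc.

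Dendritic cell genes had 9 of 128 (7.03%), with 4 at Tcf4, which is also expressed in B-lineage cells, 2 at Batf3 and 1 at Flt3. The called regions of that list numbered 71 and 70 in pc-BMACs, 73 and 72 in the plasma cell libraries and 94 and 86 in the immature B cell libraries, so pc-BMACs had no more of them in all. Progenitor genes had 3 of 54 (5.56%), while their called regions numbered 14 and 16 in pc-BMACs, 18 and 20 in the libraries of plasma cells and 43 and 29 in those of immature B cells. The 3 lay at Gata2, with 2, and at Kit. At Gata2 3 and 4 regions were called in pc-BMACs, 0 and 1 in the plasma cell libraries and 1 and 1 in the immature B cell libraries. Kit, the stem cell factor receptor, had 5 and 5 regions called in pc-BMACs, 3 and 2 in the plasma cell libraries and 1 and 0 in the immature B cell libraries.

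Among the functional lists, immune transcription factors had 75 of 960 (7.81%), at 27 of 68 genes. Beside Hivep3 and Foxp1, Etv6 had 6 of 33, and Fli1, Nfatc1 and Tcf12 had 5 each, of 23, 30 and 31. Calcium channels and signalling genes had 30 of 464 (6.47%), led by Cacna1e. The L-type channel gene Cacna1d had 4 of 34, with 28 and 21 regions in pc-BMACs, 19 and 15 in the plasma cell libraries and 17 and 14 in the immature B cell libraries, and the IP3 receptor gene Itpr2 had 4 of 50. At Itpr2 immature B cells had most called regions, with 25 and 23 in pc-BMACs, 21 and 22 in the plasma cell libraries and 36 and 28 in the immature B cell libraries. So they did, summed over both libraries, over the whole calcium list, with 267 and 218 in pc-BMACs, 238 and 217 in the plasma cell libraries and 308 and 266 in the immature B cell libraries. The transcription factor list had 607 and 506 in pc-BMACs, 515 and 490 in the plasma cell libraries and 651 and 568 in the immature B cell libraries.

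Secretory pathway and unfolded protein response genes had 10 of 158 (6.33%). Edem3, which trims misfolded glycoproteins for degradation, had 3 of 11, with 8 and 8 regions in pc-BMACs, 6 and 3 in the plasma cell libraries and 4 and 1 in the immature B cell libraries. The stress sensors Atf6 and Ern1 had 2 of 20 and 2 of 17. Cell cycle genes had 4 of 56 (7.14%), at Ccne1, with 3, and Mki67.

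The next 3 lists lay near the background of 4.53%. Aire regulation and NF-kB genes had 8 of 175 (4.57%), led by Nfkb1 with 3 of 22, Nfkbiz with 2 of 18 and Map3k14, the kinase of the alternative NF-kB pathway, with 1 of 8. Homing, adhesion and survival genes had 9 of 239 (3.77%), with 4 of 37 at Bcl2, 2 of 12 at Il6st and 1 of 25 at Cxcr4. Antigen presentation and costimulation genes had 6 of 186 (3.23%), with 3 of 16 at Vsir, an inhibitory ligand of T cells, and 1 each at Cd276 and Nlrc5. Housekeeping genes had 2 of 72 (2.78%).

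**Figure D5:**
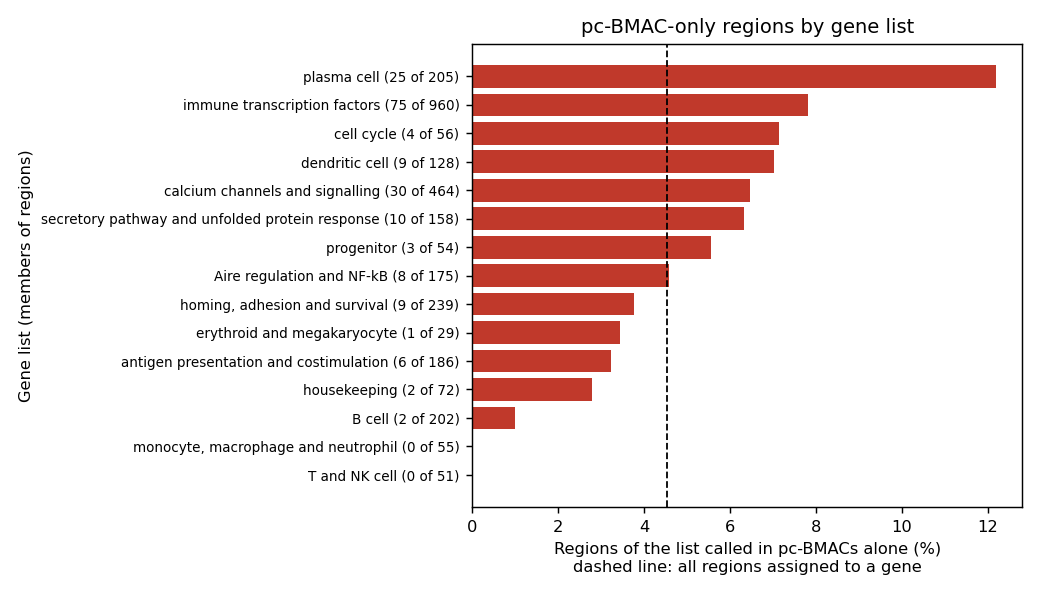
Share of each gene list's regions that were pc-BMAC-only (x axis, %), with the number of such regions and of all regions beside the list name (y axis). The dashed line marks 4.53%, the share over all assigned regions, the plasma cell list reaches 12.2%, and the monocyte and T cell lists are at 0.

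Genes behind the Aire reporter, B220, CD138 and TACI held 0 or 1 pc-BMAC-only region each. The gene behind IgM, also a sort marker, was not covered. Of all assigned regions 4.53% were pc-BMAC-only, and counts this small do not stand apart from that share. Aire itself had 2 regions, both called in all 6 libraries, although the pc-BMACs were sorted on its reporter and the other populations against it. Sdc1, which encodes CD138, had 0 of 13 pc-BMAC-only, with 6 and 7 regions in pc-BMACs, 9 and 9 in the plasma cell libraries and 11 and 8 in the immature B cell libraries, and Tnfrsf13b, which encodes TACI, had 0 of 9. Ptprc, which encodes B220 and was added after its values were seen, had 1 of 21, at chr1:138037501-138038214, 24644 bp outside the gene, with widths of 714 and 532 bp. Of the plasma cell factors, Prdm1 had 3 of 24, the widest at chr10:44450855-44452188 inside the gene with widths of 1334 and 799 bp. Its called regions numbered 13 and 12 in pc-BMACs, 12 and 11 in the plasma cell libraries and 14 and 16 in the immature B cell libraries. Irf4 had 1 of 5, and Xbp1 had 0 of 6. The antigen presentation genes Ciita, Cd80, Cd86 and Cd274 had 0 of 9, 0 of 6, 0 of 14 and 0 of 9. These counts, too, are too small to set apart from 4.53%. G6pc2, a pancreatic islet autoantigen, had a single region, called in pc-BMACs 2 and plasma cells 2.

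At a small set of genes pc-BMACs were the only population with a call. For 76 of the 2048 genes (3.71%), holding 89 pc-BMAC-only regions, no peak of plasma cells or immature B cells lay in the gene, within 1 kb of it, or in a region assigned to it. Because this count follows from the same calls, it is a description. The mirrored counts were not made for plasma cells or immature B cells, so whether 76 genes are many is not known. Negr1 had most, with 5 pc-BMAC-only of 6 regions: 6 and 5 regions were called in pc-BMACs, 0 and 0 in the plasma cell libraries and 0 and 0 in the immature B cell libraries. The region at its start, chr3:156561486-156562401, was 783 and 916 bp wide and covered the whole promoter window printed above, and others lay 2315 and 701 bp outside the gene and deep inside it.

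Cdh2, which encodes N-cadherin, had 3 of 3, the widest at chr18:16807876-16810011 across a gene end with widths of 2136 and 1513 bp. Npas3, a transcription factor of neurons, Epha8, an ephrin receptor, Brinp2, Aard and Khdc3 had 2 of 2, Ubl4b 2 of 3 and Klhdc7a 2 of 4. At Brinp2, Npas3, Aard and Khdc3 at least 1 library had a peak of the shortest width, 150 bp. Genes with a single such region were named after their values were seen. They included the morphogen gene Ihh, with peaks of 233 and 253 bp, the epithelial transcription factor gene Spdef, with 327 and 227 bp, and the imprinted gene Snrpn, with 401 and 241 bp. The cytokine gene Il17c had peaks of 308 and 314 bp. The region at Thpo, which encodes thrombopoietin, had peaks of 353 and 222 bp and also overlapped the promoter window of its neighbour Chrd over 243 bp. Chrd had 2 and 2 regions called in pc-BMACs, 1 and 1 in the plasma cell libraries and 2 and 1 in the immature B cell libraries. Olfr281, Vmn2r80, Tcp10a and Tcp10c, also in this set, belong to multigene families whose copies can share reads, so their calls are uncertain.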

How the data were processed

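Peak lists of 6 ATAC-seq libraries, 2 from each of pc-BMACs, plasma cells and immature B cells, were used as deposited by the authors. Each has 5 columns and no header: coordinates and a score, which the authors deposited as a single value in every row and which was not used. Per the submitters' processing notes, the tools were HOMER 4.10, Bowtie2 2.3.3 and bedtools, with mm10 as the build. Which tool did what, with which settings and on which intersected files, is not given in the sources used here. No counts or depths were used, so precision from depth is unknown.

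Peaks overlapping by at least 1 bp were merged with Python 3.11.15, numpy 2.4.6 and pandas 2.3.3, and a region counted as called in a library when a peak of it overlapped. Printed starts are counted from 1. Regions were assigned to the nearest protein-coding gene of RefSeq GRCm38.p6, the assembly behind mm10, within 100 kb. That table has no exons, and strands came from the promoter windows, which 79.9% of protein-coding genes have. Shares have exact or Wilson 95% intervals (scipy 1.17.1). The merging and selection were tested on simulated lists. No test was made between populations, since the calls chose the regions. Named were the 15 genes with the highest number of regions, up to 3 per gene list, 11 set genes, the 10 widest regions, the 5 runs with most regions and 1 tied with them and 20 promoter regions. The regions, lists and rules were chosen with earlier results of these data known. Alternatives changed the overlap, merging gap, peak width, number of peaks, windows and libraries.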

Additional observations from a re-analysis of the deposited data

How the results depend on the processing

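Of 63 alternative values, 43 stayed within 1.5 times the reported count or within the interval of the reported share. With the widest 17035 peaks of each list, 50% of the shortest list's 34070, 1218 regions and 957 genes were found, 70.7% of the regions overlapped a gene, 14.4% lay within 1 kb of a gene end and 32.1% had another within 50 kb. The share with another within 50 kb was 49.0% with the widest 34070 peaks of each list, 40.3% with peaks of at least 300 bp, 58.5% when peaks had to cover 50% of a region, and 29.6% for a neighbour within 20 kb. The share near a gene end was 10.2% with peaks of at least 300 bp, 9.46% with 50% cover and 20.8% within 5 kb. With 50% cover 4430 regions were found, and 2394 with peaks of at least 300 bp.

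Leaving out 1 library at a time gave 3137 to 6201 regions and 2100 to 3451 genes, the highest of each without pc-BMACs 2. It gave shares of 71.5 to 73.3% inside a gene, 47.1 to 63.2% with another within 50 kb and 7.11 to 8.18% near a gene end. Such counts can only grow, since fewer libraries have to meet the rule. Reading peak starts as counted from 1, an alternative chosen after seeing the data, gave the same 5 values. No paired analysis was possible because no test was made and the replicate numbers are not stated to mark a shared animal or day. The lists hold no depth, so a missing call can mean too few reads.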

Other observations

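Of 1005 miRNA hairpins in the RefSeq table, 15 lay within 2 kb of a pc-BMAC-only region. The same count was not made for other sets of regions, so whether 15 is many or few is not known. Mir7085 was overlapped by one, with widths of 660 and 471 bp in pc-BMACs 1 and 2. One region, 150 and 321 bp wide, lay 894 bp from Mir30c-1 and 1768 bp from Mir30e, and others lay 1636 bp from Mir326 and 1988 bp from Mir144.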
